A study of Mus musculus with 2 samples.

Results

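The vacuolar-type proton pump (V-ATPase) and lysosomal genes were examined in bone marrow-derived monocytes (BMDMs) driven toward osteoclasts (OCs). The set was a list of 42 gene symbols, found by symbol in the gene table shared by both libraries, which holds 32544 genes. It comprised 16 proton pump genes, 15 lysosomal hydrolases and 11 other lysosomal genes. All 42 were present, each once. Of these, 41 reached a mean of 20 CPM (UMIs of the gene per 1000000 UMIs) over both libraries, and the calcium channel gene Mcoln1 did not. A UMI (unique molecular identifier) marks 1 captured mRNA molecule, so that PCR copies are not counted again.

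The first library was made from a control animal or culture, whose alleles the labels do not give, and the other from LysM-Cre;Arid1afl/fl cells, called the mutant library here. LysM-Cre drives recombination from the lysozyme M promoter, which is active in the myeloid lineage, and Arid1a encodes a DNA-binding part of the BAF nucleosome remodeler. Marrow came from mice of 4 to 6 weeks. Both cultures received RANKL at 100 ng/ml and M-CSF at 50 ng/ml, the cytokines that drive OC formation, and were collected after 24 hours. The number of animals behind each library was not given in the sources used here. With 1 library per genotype no test across samples was possible, so that genotype, animal, culture and library preparation cannot be told apart. Every interval given is a 95% interval for counting error alone.

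The V-ATPase uses ATP to move protons across a membrane. Its V1 sector lies in the cytosol and splits ATP, and its V0 sector spans the membrane and carries the protons. In most cells the pump acidifies lysosomes, where cathepsins and other hydrolases that need a low pH break down proteins, sugars and lipids. In OCs the pump is also placed in the ruffled border, the folded membrane facing bone, and acidifies the space in which mineral dissolves. Tcirg1 encodes the form of the V0 a subunit known for this role, and its loss causes osteopetrosis in mice and humans.

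Many lysosomal genes carry a short palindrome in their promoters that is recognised by the MiT transcription factors Tfeb, Tfe3, Mitf and Tfec. The letters TCACGTGA and the shorter CACGTG, which lies inside it, were searched on both strands of promoter windows of 250 bases before to 50 bases after the start (RefSeq, GRCm38.p6). Windows were given for 35 of the 42 members. CACGTG was found in 11 of 35 (31.4%) and in 8.09% of all 27025 genes with a window. TCACGTGA was found in 6 of 35 (17.1%) and in 1.12% of all. By group, CACGTG was in 4 of 12 pump genes, 5 of 13 hydrolases and 2 of 10 other lysosomal genes. The shares are a description of these letters, and binding was not measured. The 11 members that held a match are shown because they cut across the groups whose levels differed below. A single match per gene is printed as 30 bases on the strand of the gene, with TCACGTGA or, where only the core was present, CACGTG in capitals.
Atp6v0d1: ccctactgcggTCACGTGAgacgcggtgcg
Atp6v0e: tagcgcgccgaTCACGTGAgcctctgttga
Atp6v1a: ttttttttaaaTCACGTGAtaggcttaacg
Ctsa: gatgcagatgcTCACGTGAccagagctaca
Ctsd: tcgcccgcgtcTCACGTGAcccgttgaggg
Mcoln1: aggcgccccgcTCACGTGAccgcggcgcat
Atp6v0b: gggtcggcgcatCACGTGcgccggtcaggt
Ctsl: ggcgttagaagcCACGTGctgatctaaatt
Lgmn: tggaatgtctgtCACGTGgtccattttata
Glb1: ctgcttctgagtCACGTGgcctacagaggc
Lamp1: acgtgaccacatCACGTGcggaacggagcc

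Each 30-base stretch was located by exact match in GRCm39. The Ctsd stretch lies at chr7:141941645-141941674 on the minus strand and the Lgmn stretch at chr12:102405383-102405412, also minus. The Atp6v1a stretch is at chr16:43959736-43959765 (minus), that of Atp6v0d1 at chr8:106292682-106292711 (minus) and that of Ctsa at chr2:164675686-164675715 (plus). Those of Atp6v0e at chr17:26895361-26895390, Mcoln1 at chr8:3550462-3550491 and Lamp1 at chr8:13209134-13209163 are on the plus strand. Those of Atp6v0b at chr4:117744527-117744556 and Ctsl at chr13:64518553-64518582 are on the minus strand. In GENCODE release M39 the match fell in an untranslated region (UTR) of at least 1 annotated transcript for 10 of the 11 genes. The Glb1 match, at chr9:114230086-114230115 (plus), lay outside all transcripts of its gene. The 10 members with CACGTG and at least 20 CPM had a median log2 ratio of mutant over control of 0.29 (range -0.29 to 2.08), and the 24 without it 0.53 (-0.39 to 1.73), so that the ranges overlapped. These medians mix the groups. By group they were 0.12 with CACGTG and 0.37 without it for the pump, and 0.59 and 0.57 for the hydrolases. Only 1 other lysosomal gene over 20 CPM held it, at 0.30, beside a median of 0.75 for the 8 without it.

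After removal of barcodes with fewer than 500 genes or more than 10% mitochondrial UMIs, 6269 control and 5663 mutant cells remained, with 163618835 and 131469887 UMIs and medians of 23978 and 21734 UMIs per cell. The libraries shared 8 cell barcodes. Arid1a stood at 51.9 CPM in the control and 20.4 CPM in the mutant library. A 3′ kit counts the end of the transcript, which lies outside the floxed exons, so that these reads do not measure the deletion itself. All 8 macrophage markers examined exceeded 20 CPM in the mean. The 4 neutrophil markers summed to 264 CPM in the control and 1982 CPM in the mutant library, and all 4 were over 1.5-fold higher. Cells in which they took at least 1% of UMIs numbered 19 and 89. Stromal markers summed to 4.42 and 11.4 CPM, class II genes to 28.7 and 116 CPM, and lymphoid and erythroid markers were at or near 0, with Cd3e and Hbb-bs at 0 in both libraries. Each kept cell was counted whether or not it could be a doublet.

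The first comparison asked how the levels of pump and lysosomal genes differed between the mutant and the control library. The hydrolases were higher in the mutant library. The summed pump UMIs were slightly lower (log2 ratio -0.09), although 11 of the 16 pump genes were higher. Of the 41 members over 20 CPM, 15 were at least 1.5-fold higher in the mutant library (12.6% of the 5219 genes over 20 CPM were) and 0 at least 1.5-fold lower (5.61% of those genes). The 15 comprised 2 pump genes, 8 hydrolases and 5 other lysosomal genes. The median log2 ratio was 0.20 for the pump, 0.59 for the hydrolases and 0.59 for the other lysosomal genes, beside 0.02 for all genes. The share of higher against lower among all genes past 1.5-fold depended on the scaling, at 69.2% by total UMIs and 52.2% when totals excluded ribosomal protein and mitochondrial genes, which shifted the median of all genes by -0.10. Under that scaling 11 members were past 1.5-fold higher and 0 lower, beside 593 and 543 of the 5953 genes over 20 CPM.

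**Figure D1:**
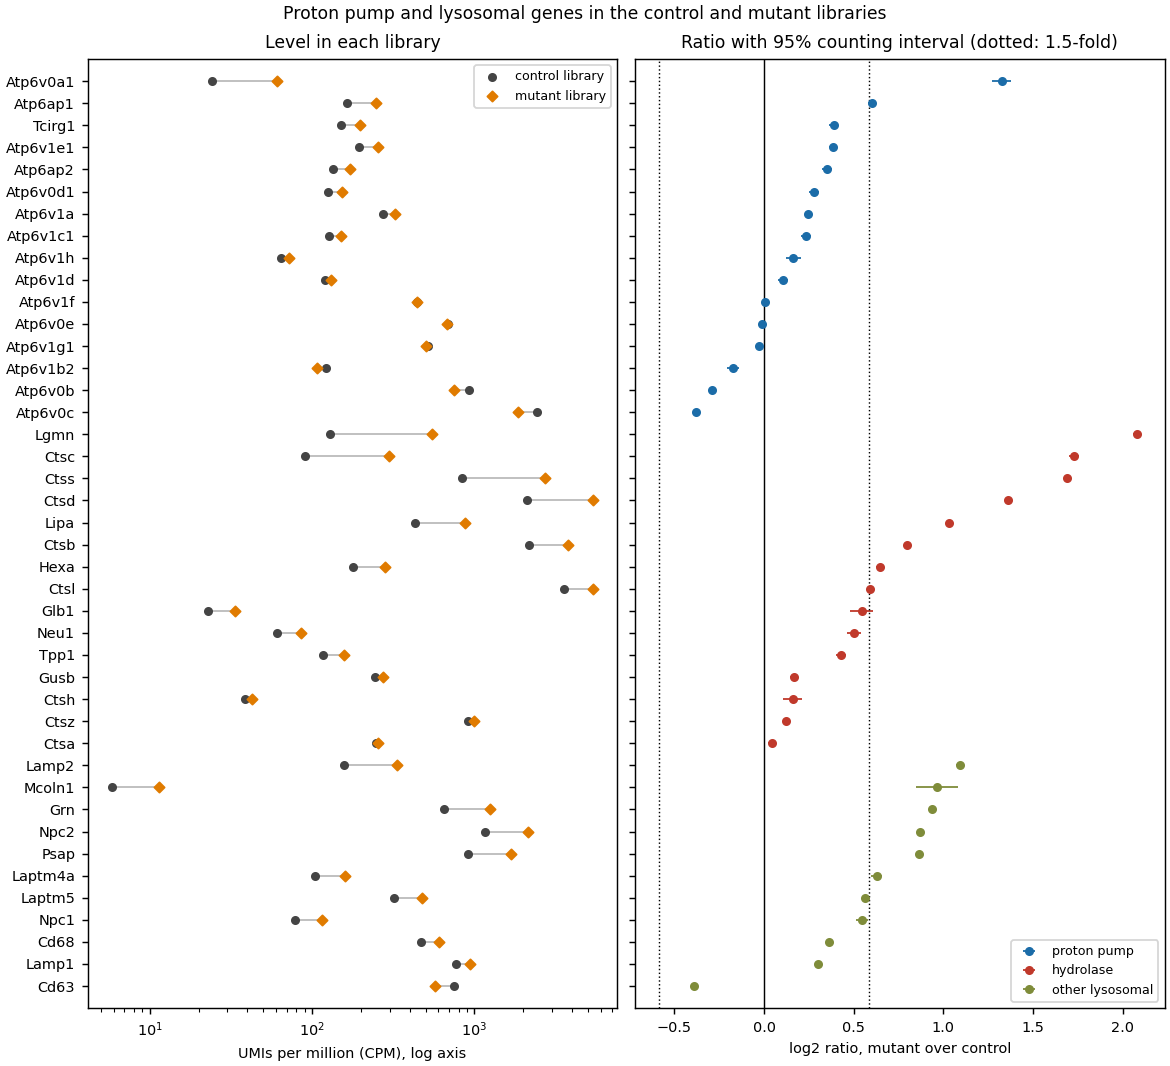
Levels of the 42 members in the control and mutant libraries (left, CPM on a log axis) and the log2 ratio of mutant over control with its 95% counting interval (right, dotted lines at 1.5-fold), by group. All 15 hydrolases sit to the right of 0, the pump genes lie on both sides of it from -0.38 to 1.32, and Cd63 is the lowest of all members at -0.39.

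Within the pump, the genes of the V0 sector differed among themselves. Atp6v0c encodes the proteolipid that forms the proton-carrying ring, and it stood at 2432 CPM in the control and 1866.5 CPM in the mutant library, a log2 ratio of -0.38 (-0.39 to -0.37). Atp6v0b, another ring subunit, stood at 923 and 754 CPM, a log2 ratio of -0.29 (-0.30 to -0.28). Atp6v0e was nearly the same in both, at 687 and 680 CPM. These 3 V0 genes thus stood at or below their control level, while the remaining V0 genes were above it.

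The a subunit links the sectors and is encoded by several paralogs. Atp6v0a1 (chr11:100881700-100954548, plus strand) stood at 24.4 CPM in the control and 61.0 CPM in the mutant library, and at a log2 ratio of 1.32 (1.27 to 1.38) it was the pump gene with the largest ratio. Tcirg1 (chr19:3946050-3957917, minus strand) stood at 151 and 198 CPM, a log2 ratio of 0.39 (0.36 to 0.41). Both were higher in the mutant library, Atp6v0a1 by more. Tcirg1 therefore made up 86.1% (85.7 to 86.5%) of the UMIs of both together in the control and 76.5% (76.0 to 76.9%) in the mutant library. Atp6v0d1, the ubiquitous form of the d subunit, stood at 126 and 153 CPM, a log2 ratio of 0.28.

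The V1 sector showed small ratios, with a median of 0.13 over 8 genes and none past 1.5-fold. Atp6v1g1, a stalk subunit and the V1 gene with the most UMIs, stood at 515 CPM in the control and 506 CPM in the mutant library. Atp6v1e1, also of the stalk, had the highest V1 ratio, at 194 and 253 CPM and a log2 ratio of 0.38. Atp6v1b2, the B subunit of the ATP-splitting head that macrophages and OCs use, had the lowest, at 121 and 107 CPM and a log2 ratio of -0.17 (-0.20 to -0.14). The partner in that head, Atp6v1a, stood at 274 and 325 CPM. The remaining V1 genes Atp6v1c1, Atp6v1d, Atp6v1f and Atp6v1h had ratios of 0.24, 0.11, 0.00 and 0.16. Exons of Atp6v1a and Atp6v1e1 overlap exons of Naa50 and Slc25a18 on the opposite strand, and since the use of strand in counting was not stated, their counts are uncertain. Of the accessory genes, Atp6ap1, needed for pump assembly, stood at 164 and 248 CPM (log2 ratio 0.60, 0.58 to 0.63), and Atp6ap2, the prorenin receptor, at 134 and 171 CPM.

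In sum, 11 of the 16 pump genes had a ratio above 0, beside 52.4% of all genes over 20 CPM. With totals that excluded ribosomal protein and mitochondrial genes, 9 of the 16 pump genes did, beside 2461 of the 5953 genes over 20 CPM. Atp6v1d and Atp6v1f were then below 0, and the pump median was 0.09, beside -0.08 for all genes. The summed pump UMIs, in which Atp6v0c took 37.4% in the control and 30.5% in mutant cells, were 0.651% and 0.612% of all UMIs. The sum was thus slightly lower (log2 ratio -0.09) although most of its genes were higher.

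The hydrolases were higher as a group, and all 15 had a log2 ratio above 0, from 0.04 for Ctsa to 2.08 for Lgmn. Excluding ribosomal protein and mitochondrial genes from the totals or scaling by TMM put Ctsa below 0 and kept the other 14 above it. Their sum was 1.12% of all UMIs in the control and 2.11% in mutant cells, and the log2 ratio of the sums was 0.92 (0.917 to 0.922).

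Lgmn encodes legumain, an asparaginyl endopeptidase that also processes other lysosomal enzymes, and is one of the genes by which the study marks monocytic cells. It stood at 129 CPM in the control and 544 CPM in the mutant library, with a log2 ratio of 2.08 (2.05 to 2.10). Ctsc, a dipeptidyl peptidase that activates serine proteases of myeloid granules, stood at 90.3 and 299 CPM (log2 ratio 1.73, 1.70 to 1.76). Ctss, the cathepsin that trims the class II invariant chain and stays active near neutral pH, stood at 841 and 2716 CPM (1.69, 1.68 to 1.70). These 3 peptidases were each over 3-fold higher in the mutant library. Ctsd, the main aspartic protease of the lysosome, stood at 2094 and 5381 CPM (1.36, 1.36 to 1.37). Ctsb and Ctsl, abundant cysteine cathepsins, stood at 2170 and 3767 CPM (0.80) and at 3569 and 5382 CPM (0.59). Ctsl was thus just above the 1.5-fold line and Ctsz, at 919 and 999 CPM (0.12), well below it. Of the less abundant peptidases, Tpp1, which removes tripeptides, stood at 118 and 158 CPM (0.43) and Ctsh at 38.4 and 42.9 CPM (0.16). Exons of Ctsb, Ctsl and Ctsz overlap genes of the opposite strand, and an exon of Ctsd overlaps Gm49369 on its own strand, so that these counts carry that uncertainty. Opposite-strand overlaps also affect Ctsa, Hexa, Gusb, Neu1, Lamp1, Npc1, Npc2, Grn, Atp6v0b, Atp6v0d1, Atp6v1h and Atp6ap2. Glb1 overlaps Tmppe on the same strand.

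Of the enzymes for lipids and sugars, Lipa, the acid lipase that frees cholesterol from its esters, stood at 430 CPM in the control and 876 CPM in the mutant library (log2 ratio 1.03, 1.02 to 1.04). Hexa, the alpha subunit of beta-hexosaminidase, stood at 179 and 280 CPM (0.64, 0.62 to 0.67). Neu1, a sialidase, Glb1, a beta-galactosidase, and Gusb, a beta-glucuronidase, had ratios of 0.50, 0.54 and 0.17. Of the glycosidases only Hexa was thus past 1.5-fold.

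Among the other lysosomal genes the soluble proteins had ratios close to each other. Psap, the precursor of the saposins that help hydrolases reach lipids, stood at 920 and 1675 CPM (log2 ratio 0.87). Npc2, which carries cholesterol out of the lysosome, stood at 1166 and 2129 CPM (0.87), and Grn, the progranulin precursor, at 649 and 1242 CPM (0.94). All 3 were past 1.5-fold. Membrane proteins ranged more widely, from Lamp2, a structural glycoprotein of the lysosomal membrane, at 157 and 335 CPM (1.09, 1.07 to 1.12), to Cd63, a tetraspanin, at 744 and 568 CPM (-0.39, -0.40 to -0.38). The related Lamp1 stood at 766 and 944 CPM (0.30) and Laptm4a at 104 and 160 CPM (0.63). Cd68, the macrophage scavenger-like glycoprotein, Laptm5 and the cholesterol transporter Npc1 had ratios of 0.36, 0.56 and 0.54. Mcoln1, with 958 and 1501 UMIs in all, stood at 5.86 and 11.4 CPM.

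Setting the groups against each other within the same cells removes the effect of the total. The control library held 0.583 pump UMIs per hydrolase UMI and the mutant library 0.290, a log2 difference of -1.01 (-1.012 to -1.002). Among cells with 0 UMIs over the OC genes Ctsk, Mmp9 and Dcstamp the difference was -0.81, and among cells with at least 3 such UMIs it was -1.30. Within the cells with at least 3, the median log2 ratio of mutant over control was 0.04 for the pump, 0.81 for the hydrolases and 0.72 for the other lysosomal genes. Within the cells with 0 it was 0.27, 0.51 and 0.53. The difference over all cells was -0.99 without Atp6v0c and Ctsl, the most abundant gene of each group, an exclusion chosen after the values were seen. Macrophage markers moved in both directions between the libraries, with Adgre1 (log2 ratio 1.86), Fcgr1 (2.33), Ptprc (1.14) and Csf1r (0.65) higher and Lyz2 (-0.99), the lysozyme M gene that carries the Cre insertion, and C1qa (-0.82) lower. Without the 23 control and 92 mutant cells that carried neutrophil or stromal markers, the medians were 0.21 for the pump and 0.60 for the hydrolases, with 15 members past 1.5-fold. The neutrophil-marker cells held fewer hydrolase UMIs than the other cells, at 3731 against 11161 CPM in the control and 7164 against 21218 CPM in the mutant library.

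Other genes of the same pathways were taken from lists beside the 42 members. The lists were chosen with earlier results of these data known, so that they give no independent support. Of 27 other hydrolases, 13 exceeded 20 CPM, and of these 8 were at least 1.5-fold higher in the mutant library and 0 lower. Over all genes above 20 CPM these shares were 12.6% and 5.61%. Among the 8, Acp2, a lysosomal acid phosphatase, stood at 56.1 and 136 CPM (log2 ratio 1.28). Gaa (1.21), Man2b1 (0.92), Ppt1 (0.74), Fuca1 (0.67) and Aga (0.59) were also past 1.5-fold. Of 17 genes for sorting and the lysosomal membrane, 11 exceeded 20 CPM, 5 were past 1.5-fold higher and 0 lower. They included Scarb2, the receptor that brings glucocerebrosidase to the lysosome (1.08), Cd164 (0.90), Gm2a (0.82) and Cln3 (0.73). Gnptab, which makes the mannose 6-phosphate tag by which hydrolases are sorted, stood at 29.4 and 19.6 CPM (-0.58), and the mannose 6-phosphate receptor genes M6pr (-0.04) and Igf2r (0.10) were near 0. None of the 5 pump assembly genes over 20 CPM was past 1.5-fold in either direction.

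Most of the other pump subunits were at or near 0 in these cells. Of 10 such paralogs, 5 in the control and 6 in mutant cells had 0 UMIs, among them Atp6v0a4 and Atp6v1b1 of kidney and inner ear. Those in use were Atp6v0a2, another a subunit gene, at 22.1 CPM in the control and 24.6 CPM in the mutant library (log2 ratio 0.15, 0.08 to 0.22), and Atp6v0d2, the d subunit that rises during OC formation, at 26.8 CPM in the control and 10.9 CPM in the mutant library (log2 ratio -1.30, -1.39 to -1.21). Of 11 genes for OC acid secretion and resorption, 8 exceeded 20 CPM. Of these Ostm1, the partner of the chloride transporter Clcn7, was past 1.5-fold higher (0.72), while Mmp9 (-3.26), Ctsk (-1.47) and Acp5 (-0.60) were past it in the other direction. Clcn7 itself stood at 45.5 and 51.6 CPM (0.18). Of the MiT factors, Tfec stood at 21.0 and 35.2 CPM (0.74), Tfe3 at 31.4 and 41.6 CPM (0.41), Mitf at 34.9 and 39.7 CPM (0.18) and Tfeb at 8.68 and 12.6 CPM (0.54).

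The second comparison set cells with UMIs of 3 OC genes against cells with none of them, within each library. Cells with at least 3 UMIs over Ctsk, Mmp9 and Dcstamp, which encode the matrix-degrading cathepsin K, a gelatinase and a fusion protein, are called OC-transcript cells here. They numbered 1258 of 6269 in the control (20.1%, exact binomial interval 19.1 to 21.1%) and 264 of 5663 in the mutant library (4.66%, 4.13 to 5.24%). Cells with 0 such UMIs numbered 3503 and 4656. They were not free of other OC transcripts, with Acp5 at 19.1 CPM in the control and 52.0 CPM in the mutant library. With Acp5 added to the gate, cells with 0 UMIs numbered 2626 and 2550. The 3 genes chose the cells, so that their own levels are no result, and none of them is among the members. OC-transcript cells were deeper, with medians of 28526.5 against 22073 UMIs in the control and 29101 against 20678 in the mutant library, and 76.5% against 67.2% and 66.7% against 59.2% of them held at least 3 UMIs of cycling genes.

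In the control library the pump was higher and the hydrolases lower in OC-transcript cells. Of 41 members over 20 CPM, 2 were at least 1.5-fold higher (2.69% of the 5059 genes over 20 CPM were) and 9 at least 1.5-fold lower (5.3% of those genes). The 2 were pump genes. The 9 comprised 6 hydrolases, Lamp2, Grn and the pump gene Atp6v0a1. The median log2 ratio was 0.29 for the pump, with 12 of 16 above 0, and -0.48 for the hydrolases, with 0 of 15 above 0. All genes had a median of 0.06, with 60.2% above 0. Of the genes past 1.5-fold, 33.7% were higher, or 44.7% by totals that excluded ribosomal protein and mitochondrial genes. Under that scaling 13 pump genes and 1 hydrolase, Ctsa, were above 0, beside 4101 of the 5881 genes over 20 CPM. The pump median was then 0.35 and that of all genes 0.125.

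In the mutant library the pump and hydrolase medians had the same signs as in the control and were smaller in size. Of 41 members over 20 CPM, 0 were at least 1.5-fold higher (1.58% of the 5305 genes were) and 1, Ctsc, at least 1.5-fold lower (1.85%). The pump had a median of 0.17, with 13 of 16 above 0, and the hydrolases of -0.24, with 4 of 15 above 0. Of all genes over 20 CPM, 47.7% were above 0. Of all 42 members, 14 were higher and 19 lower in both libraries, 9 were lower in the control and higher in the mutant library, and 0 the reverse. For these counts no reference over all genes is given, and in the control 60.2% of all genes were above 0. Cells with neutrophil or stromal markers made up 3.41% of the OC-transcript cells of the mutant library and 1.59% of its cells with none, and stromal markers summed to 133 CPM in them and 0.118 CPM in the cells with none, while the neutrophil markers summed to 1252 and 2282 CPM. Without such cells the medians were 0.18 and -0.24. In the control the neutrophil markers summed to 19.2 CPM in OC-transcript cells and 483 CPM in cells with none. The 8 macrophage markers summed to 6588 and 13755 CPM in the control, where 6 of 8 were at least 1.5-fold lower, and to 5349 and 7367 CPM in the mutant library, where 1 of 8 was. Their part in the lysosomal values was not tested.

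**Figure D2:**
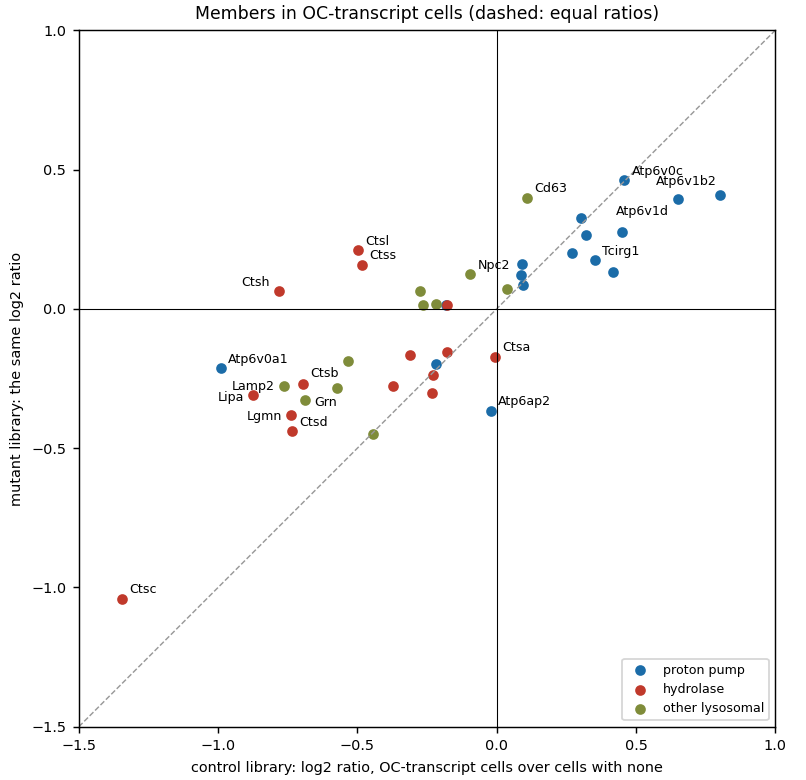
Log2 ratio of each member in OC-transcript cells over cells with none, in the control library (x axis) and the mutant library (y axis), coloured by group, with a dashed line where both ratios are equal. Of the pump genes 12 lie above 0 on both axes, all 15 hydrolases lie to the left of 0 on the x axis, and 4 of them lie above 0 on the y axis.

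The pump genes that were higher belonged to both sectors. Atp6v1b2 stood at 175 CPM in OC-transcript cells and 101 CPM in cells with none of the control library (log2 ratio 0.80, 0.76 to 0.85), and at 138 and 104 CPM in the mutant library (0.41, 0.32 to 0.50). Atp6v1d, of the central stalk, stood at 166 and 106 CPM in the control (0.65, 0.61 to 0.70) and at 166 and 126 CPM in the mutant library (0.39, 0.31 to 0.47). Both had a smaller ratio in the mutant library. Exons of Atp6v1d overlap those of Eif2s1 and Pals1 on the opposite strand. Atp6v0c had nearly the same ratio in both, with 3017 and 2196 CPM in the control (0.46) and 2461 and 1787 CPM in the mutant library (0.46). All 8 V1 genes were above 0 in both libraries, while both accessory genes were below 0 in both, at -0.22 and -0.20 for Atp6ap1 and -0.02 and -0.37 for Atp6ap2.

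Tcirg1 and Atp6v0a1 went in opposite directions. Tcirg1 stood at 179 CPM in OC-transcript cells and 140 CPM in cells with none of the control library (0.35, 0.31 to 0.39), and at 219 and 194 CPM in the mutant library (0.17, 0.10 to 0.24). Atp6v0a1 stood at 14.2 and 28.3 CPM in the control (-0.99, -1.13 to -0.86), the lowest ratio of all pump genes, and at 53.0 and 61.4 CPM in the mutant library (-0.21, -0.36 to -0.07). The Tcirg1 share of the UMIs of both was thus 92.6% in OC-transcript cells of the control and 80.5% in those of the mutant library. A further a subunit gene, Atp6v0a2, is not counted in these shares and stood at 21.1 and 23.0 CPM in the control (-0.13) and at 20.2 and 25.3 CPM in the mutant library (-0.32). The d subunit shifted too. Atp6v0d2 made up 43.9% (42.9 to 45.0%) of the d subunit UMIs in OC-transcript cells of the control and 2.99% in cells with none, against 23.6% (21.6 to 25.8%) and 4.26% in the mutant library.

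Among the hydrolases Ctsc had the lowest ratio in both libraries. It stood at 44.1 CPM in OC-transcript cells and 112 CPM in cells with none of the control library (-1.34, -1.42 to -1.27), and at 156 and 322 CPM in the mutant library (-1.04, -1.12 to -0.96). In the control, Lipa stood at 267 and 489 CPM (-0.87), Ctsh at 25.3 and 43.5 CPM (-0.78), Lgmn at 87.4 and 146 CPM (-0.74), Ctsd at 1410 and 2346 CPM (-0.73) and Ctsb at 1494 and 2416 CPM (-0.69). In the mutant library Lipa had -0.31, Lgmn -0.38, Ctsd -0.44 and Ctsb -0.27, and Ctsh, at 44.4 and 42.5 CPM, 0.06 (-0.09 to 0.22). The lower levels in OC-transcript cells were thus larger differences in the control. Of the other lysosomal genes, Lamp2 stood at 105 and 177 CPM (-0.76) and Grn at 454 and 730 CPM (-0.69) in the control, and at -0.28 and -0.33 in the mutant library. Ctsa, at 246 and 247 CPM in the control, did not differ beyond its counting interval (-0.01, -0.04 to 0.03).

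Ctsl and Ctss went in opposite directions in the libraries. Ctsl stood at 2725 and 3848 CPM in the control (-0.50, -0.51 to -0.49) and at 5951 and 5141 CPM in the mutant library (0.21, 0.20 to 0.22). Ctss, whose gene lies on chromosome 3 (chr3:95433963-95463717, plus strand) beside Ctsk (chr3:95406178-95416732, plus strand), stood at 649 and 906 CPM in the control (-0.48) and at 2916 and 2613 CPM in the mutant library (0.16, 0.14 to 0.18). The opposite signs depended on the gate. With cells chosen by at least 3 such UMIs among 5000 drawn at random from each cell, and levels taken from the UMIs not drawn, both were lower in both libraries, Ctsl at -1.16 and -0.50 and Ctss at -1.06 and -0.40.

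That gate, called equal-depth here, chose 377 control and 51 mutant cells. It was also stricter. In the control, cells with 3 to 5 drawn UMIs held 651 CPM of the gate genes, against 126 CPM in cells with 3 to 5 such UMIs in all. Depth and strictness are thus not told apart. With the equal-depth gate the pump medians were 0.54 and 0.39 and the hydrolase medians -1.06 and -0.40 in the control and mutant libraries. In cells of 15000 to 30000 UMIs with the first gate they were 0.29 and 0.19, and -0.48 and -0.29. Adding Acp5, another OC gene, to the 3 gate genes gave pump medians of 0.26 and 0.15 and hydrolase medians of -0.30 and -0.01. In cells with 0 UMIs of the cycling genes, the mutant medians were 0.07 for the pump and -0.45 for the hydrolases.

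Pump UMIs per hydrolase UMI followed from both shifts. The control library held 0.908 in OC-transcript cells and 0.5001 in cells with none, a log2 difference of 0.86 (0.85 to 0.87). The mutant library held 0.370 and 0.285, a log2 difference of 0.38 (0.36 to 0.39). OC-transcript cells of the mutant library thus lay below the cells with none of the control. With the stricter equal-depth gate the differences were 1.53 and 0.96. In cells of 15000 to 30000 UMIs they were 0.95 and 0.44, and with Acp5 in the gate 0.67 and 0.13.

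The shift was graded with the number of OC-transcript UMIs. Across control cells with 0, 1 to 2, 3 to 5, 6 to 10 and over 10 such UMIs, the summed pump level was 6086, 6288, 6782, 7229 and 8518 CPM and the summed hydrolase level 12171, 11884, 10387, 8718 and 6181 CPM. The ratio of the former to the latter went from 0.5001 to 1.38, so that pump UMIs outnumbered hydrolase UMIs only in the highest bin of 459 cells. In the mutant library the pump stood at 5974, 6431, 6844, 7247 and 7695 CPM, close to the control at each step below the highest bin. The hydrolases stood at 20955, 22454, 21285, 21043 and 13642.5 CPM, nearly level over the first bins and lower only in the highest, which held 57 cells. The ratio went from 0.285 to 0.564. With cells binned by 5000 drawn UMIs, it went from 0.527 to 2.69 over 5 bins in the control and from 0.287 to 0.450 over the 3 bins that held at least 20 cells in the mutant library.

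**Figure D3:**
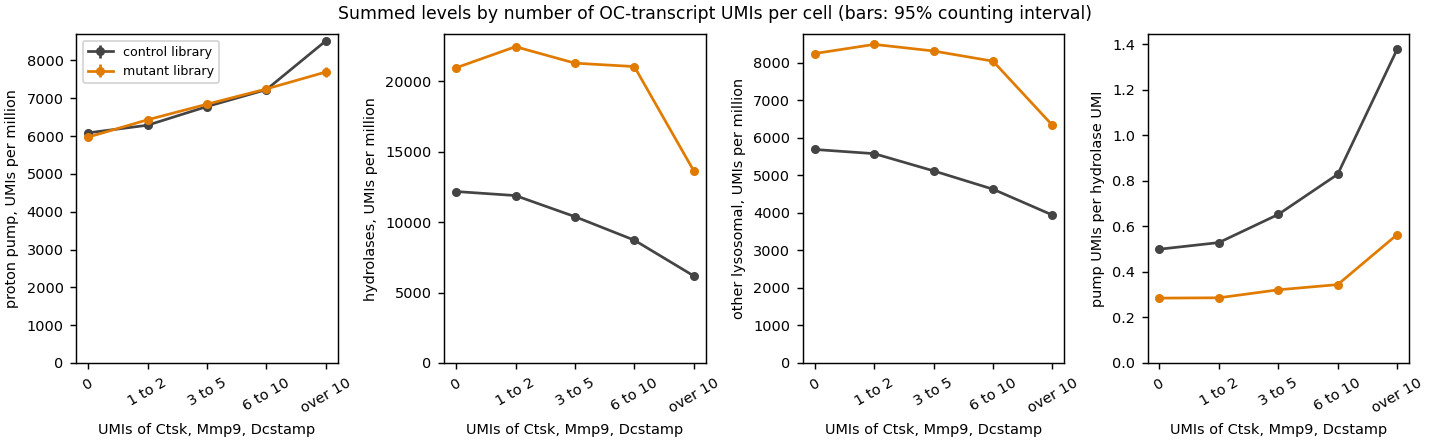
Summed CPM of the pump, hydrolase and other lysosomal genes, and pump UMIs per hydrolase UMI, in cells binned by their UMIs of Ctsk, Mmp9 and Dcstamp (x axis), for the control and mutant libraries, with 95% counting intervals that are mostly smaller than the points. Pump levels of both libraries run together up to the bin of 6 to 10 UMIs, while the hydrolase level of the mutant library lies above that of the control in every bin.

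Gene by gene, 10 of the 16 pump genes were higher at each step in the control and 5 in mutant cells, and 13 were higher in the highest bin than at 0 in each library. All 15 hydrolases were lower in the highest bin than at 0 in both libraries. Of these, 10 were lower at each step in control cells and 4 in mutant cells. The bins from 3 to 5 UMIs upward held 134, 73 and 57 mutant cells, against 521, 278 and 459 control cells. An unbroken order over the bins also depends on counting error, so the step counts do not compare the libraries. No such counts over all genes are given here for reference. Ctsd went from 2346 to 951 CPM in the control and from 5511 to 2977 CPM in the mutant library. Ctsl went in the mutant library from 5141 CPM at 0 to 7118 CPM at 6 to 10 UMIs and stood at 3837 CPM in the highest bin, while it went from 3848 to 1880 CPM in the control. Its opposite sign in the mutant library above thus came from the middle bins. Atp6v1b2 went from 101 to 241 CPM in the control and from 104 to 190 CPM in the mutant library.

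The paralog shares rose at each step in the control but not in the mutant library. The Tcirg1 share of the Tcirg1 and Atp6v0a1 UMIs together went from 83.2% at 0 to 95.9% (95.1 to 96.5%) over 10 UMIs in the control and from 76.0% to 86.4% (83.2 to 89.2%) in the mutant library. The Atp6v0d2 share of the d subunit UMIs went from 2.99% to 62.0% (60.6 to 63.4%) and from 4.26% to 37.8% (33.6 to 42.02%). Within the mutant library the Atp6v0d2 share was 17.7% at 3 to 5 UMIs and 15.6% at 6 to 10. The Tcirg1 share there was 77.1% at 1 to 2 UMIs and 76.7% at 3 to 5. In both pairs the highest bin of the mutant library thus stood below that of the control, with counting intervals that did not overlap. These intervals leave out the spread among the 57 mutant and 459 control cells. The mix of gate genes also differed there, with Ctsk at 598 of 897 CPM in the mutant library and 440 of 906 CPM in the control. Its part in the shares was not tested. Of the MiT factors, Mitf stood at 54.5 CPM in OC-transcript cells and 26.9 CPM in cells with none of the control (1.02) and at 44.5 and 39.4 CPM in the mutant library (0.18). Tfec stood at 25.7 and 18.9 CPM (0.44) and at 41.5 and 34.3 CPM (0.28), and Tfe3 at 27.9 and 32.5 CPM (-0.22) and 40.8 and 41.2 CPM (-0.01).

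Single cells varied widely around these sums. The median control cell held 0.620% of its UMIs in pump genes and 1.06% in hydrolases, and the median mutant cell 0.586% and 2.00%. The hydrolase share ranged from 0.378% to 2.11% between the 5th and 95th percentiles of control cells and from 0.681% to 3.94% in mutant cells, so that the libraries overlapped. More pump than hydrolase UMIs were found in 664 of 1258 OC-transcript cells of the control (52.8%, exact binomial interval 50.0 to 55.6%) and 213 of 3503 cells with none (6.08%, 5.31 to 6.92%). In the mutant library these were 41 of 264 (15.5%, 11.4 to 20.5%) and 143 of 4656 (3.07%, 2.59 to 3.61%). Cells of a library share its preparation and are not replicates.

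**Figure D4:**
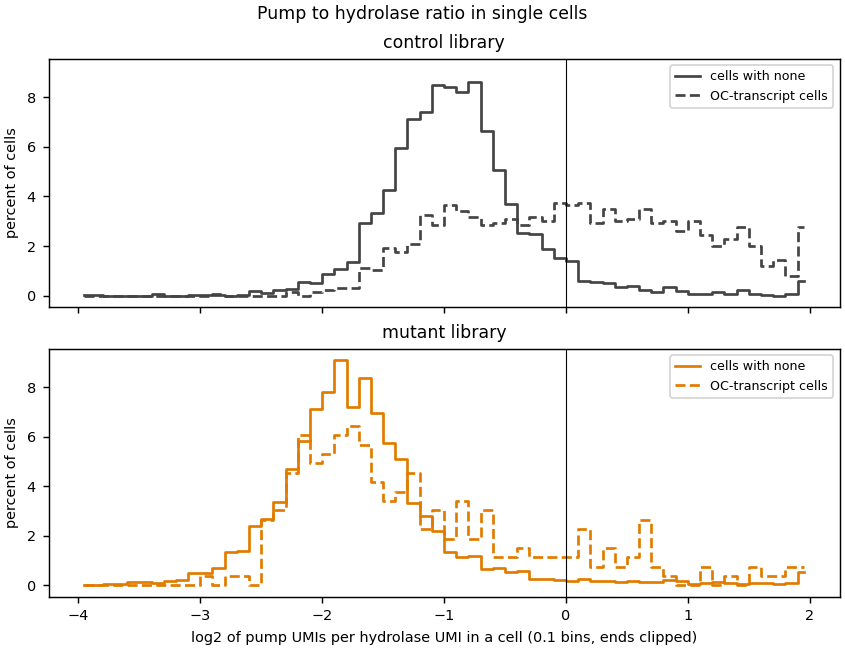
Distribution over single cells of the log2 of pump UMIs per hydrolase UMI (x axis, bins of 0.1 with the ends clipped) against percent of cells (y axis). Each library shows OC-transcript cells and cells with none, which held 0 UMIs over Ctsk, Mmp9 and Dcstamp. In the control, OC-transcript cells spread to the right around a median of 0.08 against -0.94, and in the mutant library most of them overlap the cells with none, with medians of -1.499 and -1.777.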

How the data were processed

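The authors deposited UMI counts of each gene in each barcode, not normalized, from a 10x 3′ kit. The file headers name Cell Ranger 6.1.0. GRCm39 is named in the submitters' processing notes. Whether the counts precede read aggregation across samples, and whether counting used strand, is not given in the sources used here. UMIs were summed over the kept cells of a library or bin and divided by their total (CPM). Each 3′ molecule counts once whatever the transcript's length, so levels were not divided by length. Ratios have exact conditional (binomial) intervals, levels exact Poisson intervals and shares Clopper-Pearson intervals (95%), checked on simulated data. Genes under a mean of 20 CPM were left out of medians, and 1.5-fold was the line for counts. Members and lists were chosen with earlier results of these data known. Named genes were the highest-level member and the highest and lowest ratio of each role, all past 1.5-fold, and fixed pathway genes. Values of 3 such pathway genes are not reported here. Alternatives covered scaling, doublets (0.8% per 1000 barcodes, 2 simulated per barcode, 50 neighbours), marker cells, depth, cycling and the gate. Coordinates were taken from GENCODE M39. Python 3.11.15, numpy 2.4.6 and scipy 1.17.1 were used.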

Additional observations from a re-analysis of the deposited data

Results flagged for a closer look

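Among the members, 3 had ratios of OC-transcript cells over cells with none that pointed in opposite directions in the control and mutant libraries, with both counting intervals excluding 0. The difference of the log2 ratios, mutant minus control, was 0.709 for Ctsl, 0.641 for Ctss and 0.220 for Npc2. Ctsl had -0.50 in the control and 0.21 in mutant cells, Ctss -0.48 and 0.16, and Npc2 -0.09 and 0.12. With 1 library per genotype the difference was not tested across samples. With the stricter equal-depth gate (at least 3 OC-transcript UMIs among 5000 drawn per cell) Npc2 had -0.16 in the control and -0.12 in mutant cells. Ctsl and Ctss were also below 0 in both.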

How the results depend on the processing

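The group medians and ratios below kept their sign under each alternative. No interval for the spread of members around a median was calculated. The counting interval of the middle gene, or the mean of those of the middle 2, was taken on total UMIs and held 0 in 2 cases. These were the mutant hydrolase median with Acp5 added (-0.08 to 0.06) and the mutant pump median without cycling UMIs (-0.13 to 0.27). Single members did change sign. With the equal-depth gate, which was also stricter and is meant by equal depth below, Ctsl (-0.50), Ctss (-0.40) and Npc2 (-0.12) were below 0 in the mutant library. Other scalings put members near 0, Ctsa, Atp6v1d and Atp6v1f among them, below 0 between libraries. Leaving out a replicate was not possible with 1 library per genotype. No paired analysis was possible because each genotype had 1 library. Members at least 1.5-fold higher in the mutant library numbered 11 to 16 over the alternatives, and 0 were lower under each. Values follow in the order proton pump median, hydrolase median, other lysosomal median and pump per hydrolase (log2). Between libraries (0.20, 0.59, 0.59 and -1.01), totals that excluded ribosomal protein and mitochondrial genes gave 0.0903, 0.48 and 0.49 for the medians, and TMM scaling 0.14, 0.53 and 0.53. Equal weight per cell gave 0.64 for the other lysosomal genes and -0.999 for the ratio, and no minimum level gave 0.63 for the former. The hydrolase median was 0.60 without doublets, 0.60 without marker cells, 0.58 in cells of 15000 to 30000 UMIs (pump 0.25) and 0.58 in cells with 0 cycling UMIs (other lysosomal 0.56). The ratio was -1.02, -0.998 and -0.83 without doublets, at fixed depth and in cells without cycling UMIs. It was -0.99 without Atp6v0c and Ctsl, an alternative chosen after seeing the data, as was leaving Mmp9 out of the gate.

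Between OC-transcript cells and cells with none of the control (pump 0.29, hydrolases -0.48, ratio 0.86), the pump median was 0.35 without ribosomal protein and mitochondrial genes, 0.23 under TMM, 0.54 at equal depth, 0.36 with at least 5 UMIs, 0.26 with Acp5 added and 0.35 without Mmp9. The hydrolase median was -0.41, -0.54, -1.06, -0.70, -0.30 and -0.56 in the same order, -0.52 without doublets and -0.38 without cycling UMIs. The ratio was 0.90 with equal weight, 0.94 without doublets, 1.53 at equal depth, 1.12 with at least 5 UMIs, 0.67 with Acp5, 0.95 at 15000 to 30000 UMIs, 0.79 without cycling UMIs, 0.99 without Mmp9 and 0.80 without the most abundant genes.

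In the mutant library (0.17, -0.24 and 0.38), the ratio was 0.45, 0.42, 0.96, 0.51, 0.13, 0.44, 0.31, 0.27 and 0.41 in that order. The pump median was 0.39 at equal depth and 0.0708 without cycling UMIs, and the hydrolase median -0.0106 with Acp5 and -0.45 without cycling UMIs. The 264 mutant OC-transcript cells, 51 at equal depth, limit the precision. The cause of these shifts was not tested.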
